A study of Mus musculus with 13 samples.

Results

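Transcript levels of 7 genes that set how muscle takes up glucose were followed in the gastrocnemius, a calf muscle, of 13 obese male mice. The genes were taken by name from the 21868 rows of the deposited normalized counts, and all 7 were found there. They were the glucose transporter genes Slc2a4, Slc2a1, Slc2a3 and Slc2a12, the Rab GTPase-activating protein genes Tbc1d1 and Tbc1d4, and Txnip. C57BL/6 mice (the C57BL/6N substrain in the study's account of its transcriptome) arrived at 7 weeks of age, acclimatized for 1 week, ate a diet with 60 kcal% fat for 15 to 17 weeks and then went back to chow. They were then treated for 3 weeks. The 5 vehicle-treated mice received phosphate-buffered saline and placebo, the 5 semaglutide-treated mice received semaglutide (30 nM/kg/day, intraperitoneally) and placebo, and the 3 semaglutide + ketone ester–treated mice received the same semaglutide with ketone ester in the drinking water (0.114 g/mL). Semaglutide is an agonist of the GLP-1 receptor that lowers food intake and body weight, and a ketone ester is a drink that raises circulating ketones. No group received ketone ester alone, so that its own effect and its effect on top of semaglutide cannot be told apart.

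Muscle clears much of the glucose that enters the blood after a meal. GLUT4, the product of Slc2a4, is held in vesicles inside the fibre until insulin or contraction sends it to the surface. TBC1D4 (also called AS160) and TBC1D1 keep Rab proteins on these vesicles inactive, and phosphorylation by AKT or AMPK relieves that brake. TXNIP, an alpha-arrestin induced by glucose, promotes the removal of GLUT1 and GLUT4 from the surface and binds thioredoxin. GLUT1 and GLUT3 supply basal uptake in many cell types, and GLUT12 is a further transporter of muscle and fat.

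The sequences just before a RefSeq start of 3 of the genes are shown. Tbc1d1 and Tbc1d4 were the members that rose together, and Txnip is a textbook target of the carbohydrate response element. RefSeq promoter windows on GRCm38.p6 were matched for 5 of the 7 genes (6 windows, 2 of them of Tbc1d1), and 250 bases before each start were read 5′ to 3′ on the strand of the gene. Slc2a3 and Slc2a4 had no window. The windows shown lie at chr5:64160010-64160259 on the plus strand for Tbc1d1, chr14:101609192-101609441 on the minus strand for Tbc1d4 and chr3:96557707-96557956 on the plus strand for Txnip. That of Tbc1d1, the first of its 2, lies inside the span of the gene in GENCODE M21 (chr5:64156305-64351486). It precedes a RefSeq start and not the annotated start of the gene. Capitals mark CG dinucleotides in Tbc1d1 and Tbc1d4, and 2 motif matches in Txnip.
Tbc1d1: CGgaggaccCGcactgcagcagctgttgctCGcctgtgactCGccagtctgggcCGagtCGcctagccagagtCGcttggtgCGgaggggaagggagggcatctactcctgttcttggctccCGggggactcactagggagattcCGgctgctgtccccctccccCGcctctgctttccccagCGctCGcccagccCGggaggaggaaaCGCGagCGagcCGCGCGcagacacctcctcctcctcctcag
Tbc1d4: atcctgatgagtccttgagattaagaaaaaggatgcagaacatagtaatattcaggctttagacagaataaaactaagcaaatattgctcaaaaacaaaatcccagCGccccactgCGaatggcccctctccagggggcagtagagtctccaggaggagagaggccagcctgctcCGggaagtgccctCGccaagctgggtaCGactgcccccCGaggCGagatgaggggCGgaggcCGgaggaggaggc
Txnip: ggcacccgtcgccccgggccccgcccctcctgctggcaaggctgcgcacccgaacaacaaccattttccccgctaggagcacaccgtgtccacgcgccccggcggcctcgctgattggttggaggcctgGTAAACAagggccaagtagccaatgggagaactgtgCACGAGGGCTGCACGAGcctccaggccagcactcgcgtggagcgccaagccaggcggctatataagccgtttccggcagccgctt

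The first capitals in the Txnip window, GTAAACA at -121 to -115 from the start, match the FOXO letters. The second, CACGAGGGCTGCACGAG at -85 to -69, match the carbohydrate response element, searched on both strands as a pair of CACGNG with 5 bases between them. Those letters occurred in 15 of 32851 windows (0.0457%), and GTAAACA occurred in 3.17% of windows. The E-box CACGTG, whose letters can overlap those of the carbohydrate response element, occurred in 6.02% of windows. No other window of the 7 genes held any of the 3 motifs, which says only that these letters are not in these bases. CG dinucleotides numbered 20 in the Tbc1d1 window shown (27 in the other), 9 in that of Tbc1d4 and 22 in that of Txnip, against a median of 6 over all windows. The windows not shown of Slc2a1 and Slc2a12 held 13 and 5. The 9 of Tbc1d4 were more than in 59.7% of windows.

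All 7 genes are annotated as protein coding in GENCODE M21 on GRCm38. Slc2a4 lies at chr11:69942539-69948188, Slc2a1 at chr4:119108711-119137983, Slc2a3 at chr6:122727809-122801640 and Slc2a12 at chr10:22645011-22704285. Tbc1d1 lies at chr5:64156305-64351486, Tbc1d4 at chr14:101442360-101609191 and Txnip at chr3:96557957-96561883. The 3′ end of Slc2a12 overlaps Tbpl1 on the opposite strand, which had a mean of 222 normalized counts. The libraries were stranded, but whether the counting used strand is not given in the sources used here, so the value of Slc2a12 could hold reads of Tbpl1. Txnip and Slc2a1 also have antisense genes in the annotation, which were not analysed here.

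Libraries held 15319471 to 23498162 reads on genes. The 10 muscle fibre markers summed to between 1688458 and 3982408 normalized counts per mouse. Semaglutide mouse 13 stood apart from its group. Its score on the first principal component of all genes (38.1% of the variance) was -9.12. The 4 remaining mice on semaglutide alone scored 31.8 to 52.5, vehicle-treated mice -24.5 to -12.8 and semaglutide + ketone ester–treated mice -25.6 to -15.8. Semaglutide mouse 16 stood apart in other markers. Its adipocyte markers summed to 19743 normalized counts against 1772 to 7084 in the other 12 mice, its leukocyte markers had the highest sum of the 13 mice (1930) and its muscle fibre markers the lowest. Without mouse 16 the 4 called differences of the members stayed called in limma. All samples carried the same batch label. Of the other marker lists, the fibroblast and tendon list had 5 of 7 genes lower under semaglutide and 3 higher and 1 lower with ketone ester added. The endothelium list had 2 of 8 higher with ketone ester added. The leukocyte, adipocyte, nerve and satellite cell lists had 0 called in limma or edgeR (DESeq2 called 1 adipocyte gene under semaglutide). Of all genes, 25.1% were called under semaglutide in limma, 26.9% in edgeR and 29.1% in DESeq2. With ketone ester added the shares were 18.4%, 20.8% and 23.9%.

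Per kilobase of exon, the genes fell into 3 tiers. Txnip had the highest mean level over the 13 mice, 3314 normalized counts per kb, above 98.8% of the 12256 genes ranked. Slc2a4 followed at 2513 per kb, and Txnip was above it in 10 of 13 mice. Slc2a4 exceeded Tbc1d1 in all 13 mice.
Tbc1d1 had a mean level of 238 per kb and Tbc1d4 one of 206 per kb, with Tbc1d1 the higher in 10 of 13 mice. Slc2a3 had 45.3, Slc2a1 41.7 and Slc2a12 40.9 per kb. These 3 transporters, near the middle of all genes ranked, were not separated. Slc2a3 exceeded Slc2a1 in 7 of 13 mice, and Slc2a1 exceeded Slc2a12 in 6 of 13. The annotation behind the deposited counts is not given in the sources used here, so exon lengths are those of GENCODE M21.

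**Figure D1:**
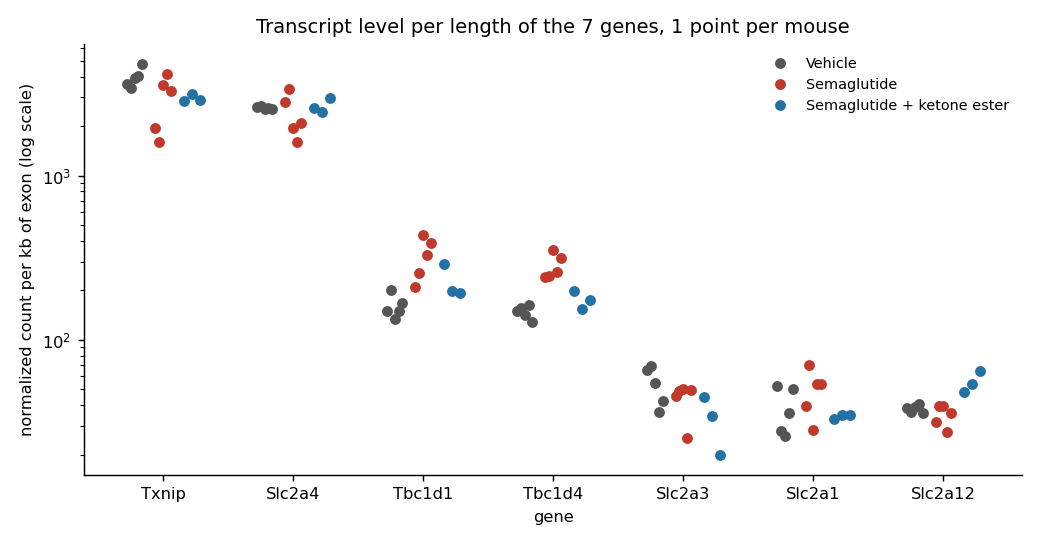
Normalized count per kb of exon (log axis) of the 7 genes, with 1 point per mouse and colour for the treatment group. Txnip and Slc2a4 lie on top, Tbc1d1 and Tbc1d4 in between, and Slc2a3, Slc2a1 and Slc2a12 overlap at the bottom.

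The first comparison asks what semaglutide alone did to these genes. Both RabGAP genes rose in semaglutide-treated mice, Tbc1d1 1.95-fold and Tbc1d4 1.90-fold, while none of the 4 transporter genes passed the test. In limma on log2(normalized count + 1), with Benjamini-Hochberg adjustment over the 12303 genes with a mean of at least 10, 2 of the 7 genes were called at an adjusted p under 0.05, both of them higher, against 25.1% of all genes tested (11.9% higher and 13.2% lower). Of all called genes 47.3% were higher, and 77.8% were with columns rescaled to equal totals, which moved the median of all genes to 0.17. Both RabGAP genes stayed called and higher there. Groups did not overlap in these 2 genes, against 14.7% of all genes (7.22% higher and 7.45% lower). At an unadjusted p under 0.05 the count was 3 of 7, Txnip the third, against 38.6% of all genes. The median log2 fold change of the 7 genes was -0.14, and that of all genes was -0.0029.

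Tbc1d4, the RabGAP downstream of AKT in insulin signalling, had normalized counts of 1151, 1194, 1084, 1254 and 989.7 in vehicle-treated mice, 1865, 1879.8, 2689, 1999 and 2412 in semaglutide-treated mice, and 1523, 1187 and 1352 in semaglutide + ketone ester–treated mice. Every semaglutide-treated mouse was above every mouse of the other groups, mouse 13 included. The group means were 1135 ± 102 (SD, n = 5), 2169 ± 366 (SD, n = 5) and 1354 ± 168 (SD, n = 3). Semaglutide-treated mice were 1.90-fold higher than vehicle-treated mice (95% interval 1.58 to 2.27, limma adjusted p = 0.000445).

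Tbc1d1, the related RabGAP that AMPK phosphorylates during contraction, had normalized counts of 1117, 1486, 996, 1118 and 1242 under vehicle, 1555, 1899, 3201, 2417 and 2868 under semaglutide, and 2146, 1470.0 and 1434 under semaglutide + ketone ester. The semaglutide-treated mice were again all above the vehicle-treated mice, with mouse 13 the lowest of them and close to vehicle mouse 2. The group means were 1192 ± 186 (SD, n = 5), 2388 ± 676 (SD, n = 5) and 1683 ± 401 (SD, n = 3). The difference between semaglutide and vehicle was 1.95-fold (95% interval 1.45 to 2.64, limma adjusted p = 0.00539).

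The ratio of Tbc1d1 to Tbc1d4 per kb in vehicle-treated mice was 1.09 ± 0.186 (SD, n = 5). Semaglutide-treated mice had a ratio of 1.13 ± 0.169 (SD, n = 5), and mice given ketone ester as well had one of 1.28 ± 0.181 (SD, n = 3). The ratios of the 3 groups overlapped, and no test was made of them. Summed muscle fibre markers moved the other way, from 1688458 to 2974368 normalized counts under semaglutide against 2637452 to 3192039 under vehicle, with 4 of the 10 markers lower and 1 (Actn3) higher in limma. The share of reads on mitochondrial genes also moved the other way, at 17.2% to 19.9% under vehicle, 11.4% to 13.7% under semaglutide and 15.6% to 17.0% under semaglutide + ketone ester, with mouse 13 the lowest. The part of either in the rise of the RabGAP genes was not tested, and in bulk muscle fewer cells of a type and less RNA per cell cannot be told apart.

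**Figure D2:**
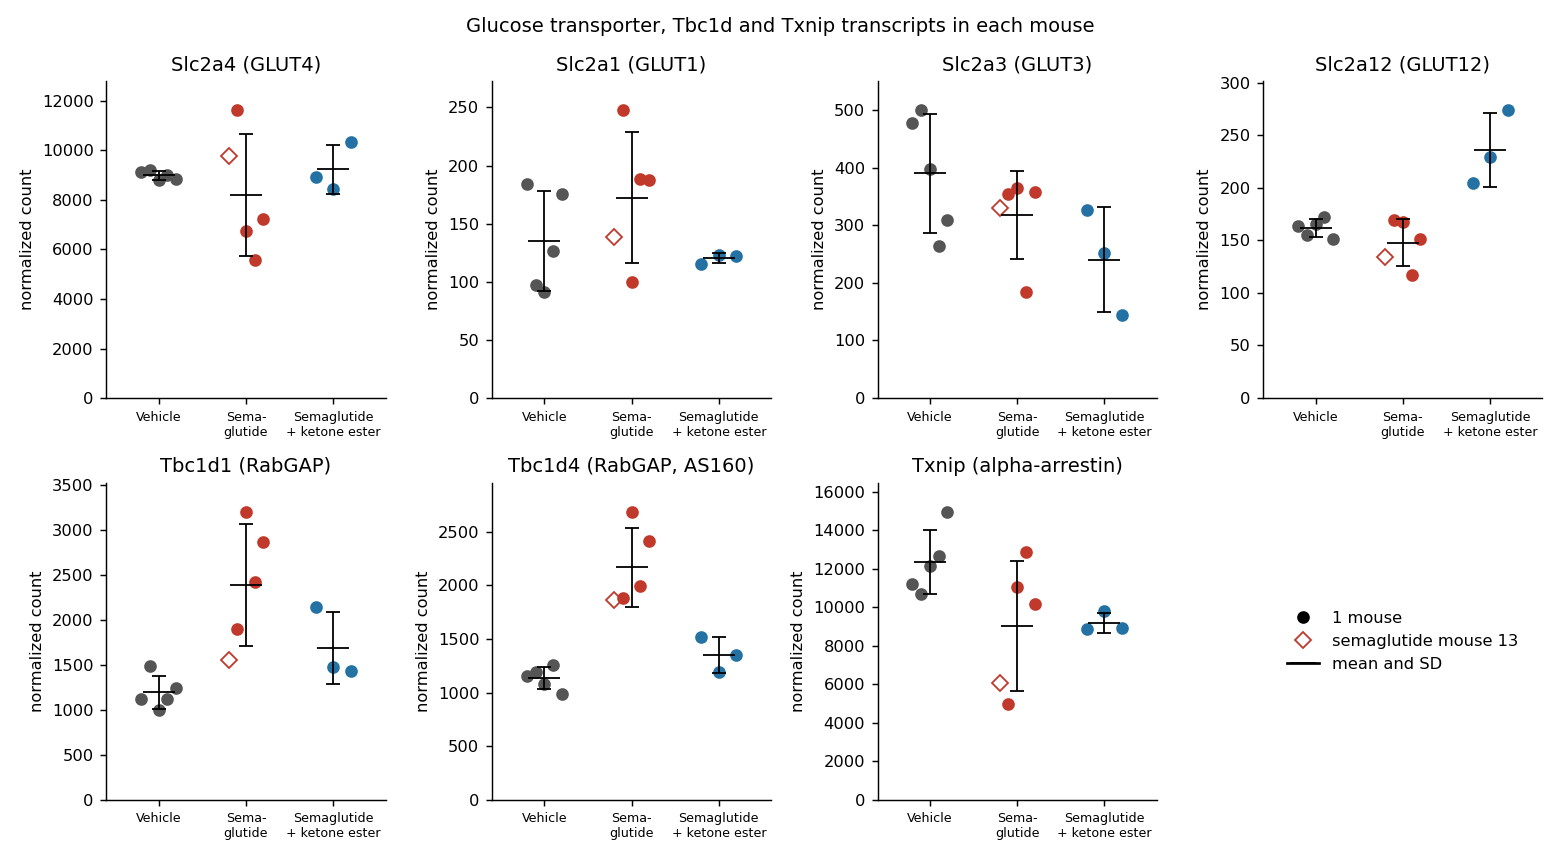
Normalized counts of each gene (linear axes from 0) with 1 point per mouse, and the mean and SD of each group in black. The open diamond is semaglutide mouse 13. All semaglutide points lie above all vehicle points for Tbc1d1 and Tbc1d4, and all semaglutide + ketone ester points lie above all others for Slc2a12.

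Slc2a4, the gene of the insulin-responsive transporter, had normalized counts of 9127, 9218, 8800.2, 9010.1 and 8831 under vehicle, 9767, 11638, 6737, 5561 and 7242 under semaglutide, and 8934, 8428 and 10326 under semaglutide + ketone ester. Vehicle-treated mice were nearly equal, while semaglutide-treated mice lay on both sides of them, with mice 13 and 14 above and mice 15, 16 and 17 below. The means were 8997 ± 182 (SD, n = 5), 8189 ± 2464 (SD, n = 5) and 9229 ± 983 (SD, n = 3). The difference between semaglutide and vehicle was 0.879-fold (95% interval 0.682 to 1.13, limma adjusted p = 0.446), with an interval that runs from a fall to 0.682 of vehicle to a rise. Without mouse 16 the log2 fold change was -0.060 (limma adjusted p = 0.8).

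The spread of Slc2a4, singled out after its values were seen and not tested, was a coefficient of variation of 2.02% under vehicle, 30.1% under semaglutide and 10.7% under semaglutide + ketone ester. On the log2 scale its SD under semaglutide was 14.7 times that under vehicle, a larger ratio than in 99.9% of the 12303 genes, whose median ratio was 1.53. Among the other 6 genes this ratio ran from 1.07 in Slc2a3 to 3.15 in Txnip.

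Txnip had normalized counts of 11230.2, 10688, 12169.5, 12660.2 and 14982 under vehicle, 6089, 4987, 11084, 12898 and 10159 under semaglutide, and 8858, 9795 and 8945 under semaglutide + ketone ester. Semaglutide mice 13 and 14, the semaglutide-treated mice highest in Slc2a4, were far below the rest, and mice 15, 16 and 17 lay at or near the vehicle range. The means were 12346 ± 1664 (SD, n = 5), 9043 ± 3371 (SD, n = 5) and 9199 ± 518 (SD, n = 3). The difference between semaglutide and vehicle was 0.692-fold (95% interval 0.489 to 0.98) and did not pass after adjustment (limma adjusted p = 0.111). Without semaglutide mouse 16 the log2 fold change was -0.68 and the limma adjusted p was 0.0439. The part of the adipocyte and leukocyte markers of that mouse in these values was not tested.

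Slc2a1, Slc2a3 and Slc2a12 did not pass the test between semaglutide and vehicle. Slc2a1, the gene of GLUT1, had 135 ± 43.2 normalized counts (SD, n = 5) under vehicle and 173 ± 56.2 (SD, n = 5) under semaglutide, with overlapping ranges of 91.6 to 184 and 99.97 to 248 (1.27-fold, 95% interval 0.87 to 1.85, limma adjusted p = 0.341). Slc2a3, the gene of GLUT3, had 390.2 ± 103 (SD, n = 5) and 319 ± 76.7 (SD, n = 5), with ranges of 265 to 501 and 184 to 365 (0.817-fold, 95% interval 0.549 to 1.21, limma adjusted p = 0.448). The lowest value of Slc2a3 under semaglutide was that of mouse 16, without which its log2 fold change was -0.11 (limma adjusted p = 0.784). Slc2a12, whose values are given with the ketone ester, had 162 ± 8.24 (SD, n = 5) and 148 ± 22.5 (SD, n = 5). A p above the threshold does not show equal levels, since the interval of Slc2a1 reached a 1.85-fold rise and that of Slc2a3 a fall to 0.549 of vehicle.

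The second comparison asks what adding ketone ester to semaglutide changed. Slc2a12 rose 1.59-fold and Tbc1d4 fell to 0.628 of its level under semaglutide, and the other 5 genes did not pass. In limma 2 of 7 genes were called, 1 higher and 1 lower, against 18.4% of all genes (9.09% higher and 9.3% lower; of those called 49.4% were higher, or 14.6% with columns rescaled to equal totals, where the median of all genes was -0.24), and the same 2 did not overlap between groups, against 20.1% of all genes (9.96% higher and 10.2% lower). No further gene of the 7 had an unadjusted p under 0.05, which 34.3% of all genes had. The median log2 fold change was -0.44 in the 7 genes and -0.0002 in all genes. This comparison shares the semaglutide-treated mice with the first.

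Slc2a12, the gene of GLUT12, had normalized counts of 164, 155, 166, 172 and 151 under vehicle, 134, 169, 168, 117 and 151 under semaglutide, and 204, 229.5 and 274 under semaglutide + ketone ester. The 3 semaglutide + ketone ester–treated mice were above all 10 others, and vehicle and semaglutide ranges overlapped. The means were 162 ± 8.24 (SD, n = 5), 148 ± 22.5 (SD, n = 5) and 236 ± 35.4 (SD, n = 3). Semaglutide + ketone ester exceeded semaglutide 1.59-fold (95% interval 1.31 to 1.95, limma adjusted p = 0.00635), and semaglutide differed from vehicle by 0.908-fold (95% interval 0.763 to 1.08, adjusted p = 0.402).

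Erythroid markers rose with Slc2a12 in this comparison, with 4 of 5 higher in limma, 1 of 5 in edgeR and 0 of 5 in DESeq2. Of all genes 18.4%, 20.8% and 23.9% were called in either direction. Between semaglutide and vehicle the median log2 fold change of the 5 was -2.41, and that of Slc2a12 was -0.14. There 0 of the 5 were called in limma, and 5 had an unadjusted limma p under 0.05. None of the 5 was at 0 in every mouse. Their sum was 2849 to 5558 normalized counts under semaglutide + ketone ester, 50.5 to 3148 under semaglutide and 1356 to 2291 under vehicle. Semaglutide mouse 13 had the sum of 3148 and a Slc2a12 count of 134, the second lowest of the 13 mice. Muscle fibre markers also rose with Slc2a12 in this comparison, with 6 of 10 higher and 1 lower in limma, against 9.09% and 9.3% of all genes. Their sums were 3342739.9 to 3982408 under semaglutide + ketone ester. The part of these markers in the difference was not tested.

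Tbc1d4 was lower in all 3 semaglutide + ketone ester–treated mice than in any semaglutide-treated mouse (0.628-fold, 95% interval 0.509 to 0.775, limma adjusted p = 0.00795). Tbc1d1 had an estimate of 0.717-fold (95% interval 0.507 to 1.01, limma adjusted p = 0.16), with mouse 19 inside the semaglutide range and mice 21 and 22 below it. Without mouse 13 the adjusted p of Tbc1d1 was 0.0354, and it was 0.0364 with columns rescaled to equal totals and 0.0197 with array weights. Whether the difference in Tbc1d4 was larger than that in Tbc1d1 was not tested.

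Among the remaining genes, Slc2a1 had 115, 123 and 123 normalized counts under semaglutide + ketone ester, all inside the semaglutide range (0.732-fold, 95% interval 0.473 to 1.13, limma adjusted p = 0.294). Slc2a3 had 327, 251 and 144, the lowest below every semaglutide-treated mouse (0.738-fold, 95% interval 0.467 to 1.17, limma adjusted p = 0.334). Slc2a4 differed by 1.16-fold (95% interval 0.869 to 1.56, limma adjusted p = 0.461) and Txnip by 1.08-fold (95% interval 0.725 to 1.62, limma adjusted p = 0.798).

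The third comparison sets semaglutide + ketone ester against vehicle. No gene of the 7 was called in limma, where 0.236% of all genes were (0.0732% higher and 0.163% lower), and 2 of the 7, Slc2a12 and Slc2a3, had an unadjusted p under 0.05, against 10.5% of all genes. By edgeR 0 were called, against 0.366% of all genes. By DESeq2 and by limma with array weights 1 was called, Slc2a12 in both, against 1.40% and 1.67% of all genes. Slc2a12 was 1.45-fold higher than under vehicle (95% interval 1.18 to 1.77, limma adjusted p = 0.144) and Txnip 0.75-fold (95% interval 0.502 to 1.12, limma adjusted p = 0.678), and groups did not overlap in these 2 genes, against 11.3% of all genes (5.45% higher and 5.88% lower). Slc2a3 was 0.603-fold (95% interval 0.381 to 0.953, limma adjusted p = 0.421).
The RabGAP genes had estimates above 1, 1.40-fold for Tbc1d1 (95% interval 0.991 to 1.98, limma adjusted p = 0.489) and 1.19-fold for Tbc1d4 (95% interval 0.966 to 1.47, limma adjusted p = 0.59). Their intervals hold both no change and a residual rise. Slc2a4 was 1.02-fold (95% interval 0.763 to 1.37) and Slc2a1 0.929-fold (95% interval 0.6 to 1.44).

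**Figure D3:**
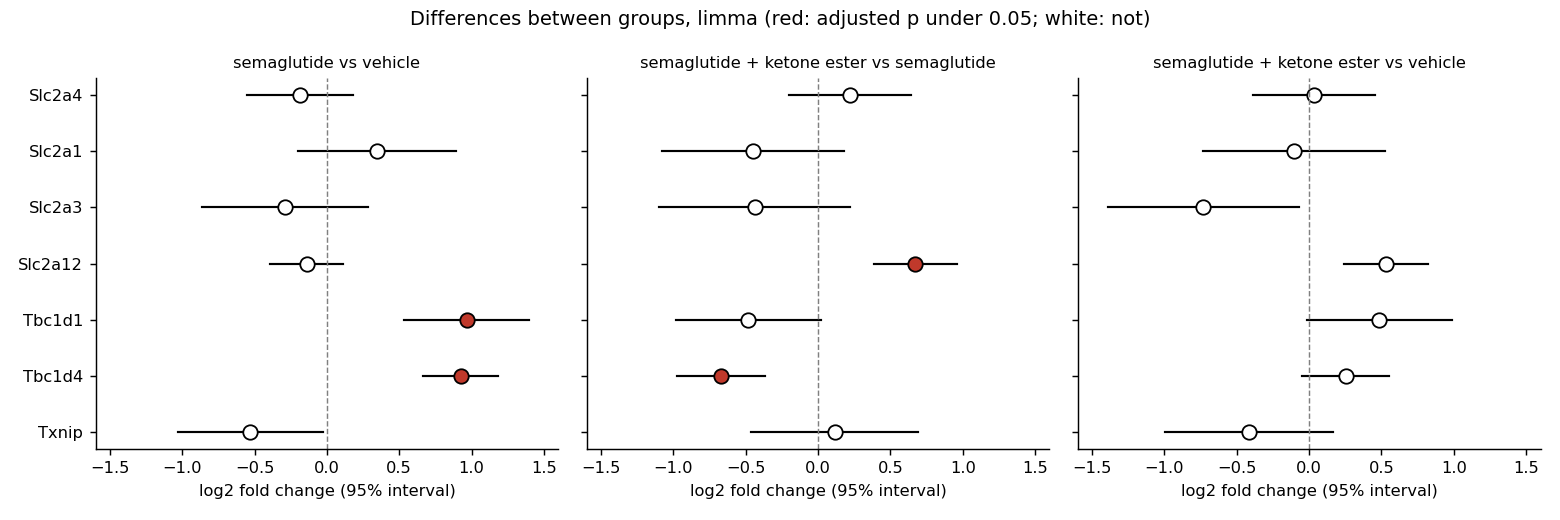
Log2 fold changes of the 7 genes with 95% intervals in the 3 comparisons, red where the limma adjusted p is under 0.05. Tbc1d1 and Tbc1d4 are red in the first panel, Slc2a12 and Tbc1d4 in the second, and no gene in the third.

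By a criterion after the study's methods, read here as an unadjusted p under 0.05 across the groups and a 1.5-fold span between the extreme group means, 3 of 7 genes qualified (Slc2a12, Tbc1d1 and Tbc1d4), against 16.1% of all genes. Tbc1d1 and Tbc1d4 were raised most in semaglutide mice 15 and 17, and Slc2a12 in semaglutide + ketone ester mouse 22.

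**Figure D4:**
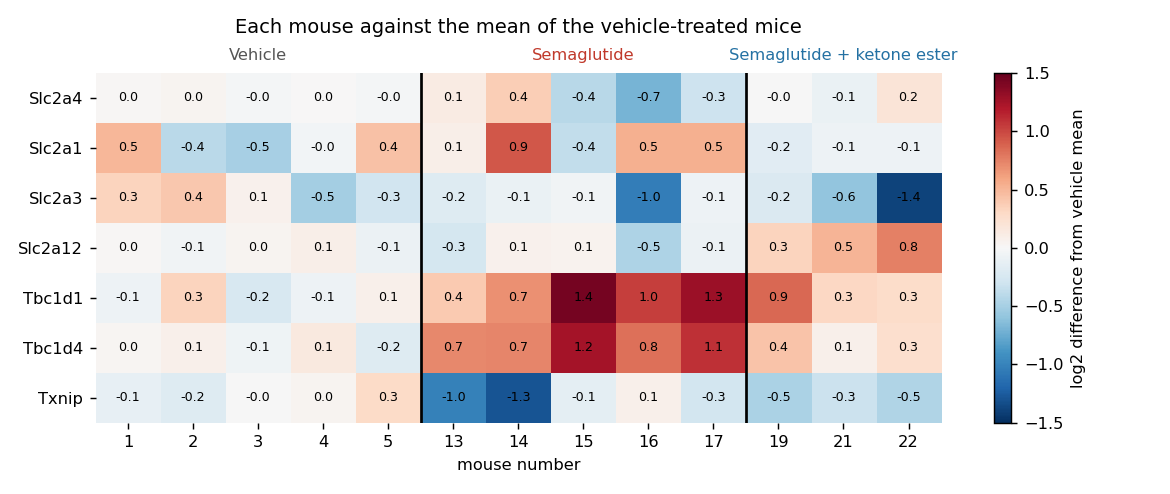
Log2 difference of each mouse from the mean of the vehicle-treated mice, with genes in rows and mouse numbers in columns, red higher and blue lower. The Tbc1d1 and Tbc1d4 rows are red across the 5 semaglutide-treated mice, and the 2 darkest blue cells of Txnip are mice 13 and 14.

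Counts in the lists that follow stand beside the share of all 12303 genes called in the same comparison and setting. Between semaglutide and vehicle that share was 25.1% in limma, 36.2% without mouse 13, 26.9% in edgeR, 29.1% in DESeq2 and 34.1% with equal totals. Between semaglutide + ketone ester and semaglutide it was 18.4% in limma, 32.2% without mouse 13, 20.8% in edgeR, 23.9% in DESeq2 and 34.1% with equal totals. No list was tested as a whole.

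Kinases and signalling genes upstream of TBC1D1 and TBC1D4 were followed as a list of 17, all tested. Under semaglutide 3 were higher than under vehicle and 2 lower in limma, 29.4% of the list against 25.1% of all genes (8 called without mouse 13, 9 in edgeR and 9 in DESeq2). Akt1, an isoform of the kinase that phosphorylates TBC1D4, rose from 932 ± 73.1 to 2885 ± 702 normalized counts (SD, n = 5 each; log2 fold change 1.59, adjusted p = 0.000128). Akt2, the other isoform in the list, rose less, from 3877 to 4867 (log2 fold change 0.32, limma adjusted p = 0.0384). Pik3r1, the regulatory subunit of PI3-kinase, rose by 1.52 on the log2 scale (adjusted p = 0.00109), while the AMPK subunit genes Prkab2 (-0.63, adjusted p = 0.0308) and Prkag2 (-0.59, adjusted p = 0.0198) fell.
With ketone ester added, 1 of the 17 was higher than under semaglutide and 7 were lower, 47.1% of the list against 18.4% of all genes. Akt1 fell by 1.65 (adjusted p = 0.00098), Pik3r1 by 1.16 (adjusted p = 0.0122) and Irs2, an insulin receptor substrate, by 1.13 (adjusted p = 0.00194), all on the log2 scale. Akt2 fell by 0.48 (limma adjusted p = 0.0161) and Prkab2 rose by 0.69 (limma adjusted p = 0.0477). The median log2 fold change of the list was 0.16 and then -0.14.

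Genes of GLUT4 vesicle traffic numbered 24, all tested. Under semaglutide 1 was higher and 4 were lower than under vehicle, 20.8% of the list against 25.1% of all genes (10 called without mouse 13). Rab10, one of the Rabs that TBC1D4 acts on, fell from 7949 to 6081 normalized counts (log2 fold change -0.40, limma adjusted p = 0.0378). Of the other Rabs it acts on, named after their values were seen, Rab8a (-0.019), Rab13 (-0.066) and Rab14 (0.27) did not pass. Snap23, a SNARE of vesicle fusion, fell by 0.30 (adjusted p = 0.0216), Cltc, the clathrin heavy chain, by 0.23 (adjusted p = 0.0418) and Pak1, a kinase downstream of RAC1, by 0.68 (adjusted p = 0.0423), and Sec16a, a protein of endoplasmic reticulum exit sites, rose by 0.56 (adjusted p = 0.00254). With ketone ester added, 2 were called, 8.33% against 18.4% of all genes (9 without mouse 13, 4 in edgeR and 5 in DESeq2), with Pak1 1.35 higher (adjusted p = 0.00567) and Sec16a 0.56 lower (adjusted p = 0.00774) on the log2 scale.

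Regulators of Slc2a4 transcription, 12 genes, held 1 higher and 1 lower gene under semaglutide, 16.7% of the list against 25.1% of all genes (4 called without mouse 13). Myod1, the myogenic factor, rose from 179.9 to 568.3 normalized counts (log2 fold change 1.61, limma adjusted p = 0.00108), and Mef2c, a MEF2 transcription factor, fell from 13724 to 7871 (-0.90, adjusted p = 0.0107). With ketone ester added, Mef2c rose by 0.85 (adjusted p = 0.0313) and Nr4a3, an orphan nuclear receptor, fell by 2.83 (adjusted p = 0.00705), the 2 genes called, 16.7% against 18.4% of all genes (5 without mouse 13, 5 in edgeR and 5 in DESeq2).

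Of 13 genes related to TXNIP, 1 was higher and 0 lower under semaglutide, 7.69% of the list against 25.1% of all genes (5 called without mouse 13, 4 in edgeR and 3 in DESeq2). This was Txn1, the thioredoxin that TXNIP binds, at 662 against 459 normalized counts (log2 fold change 0.51, limma adjusted p = 0.0131). With ketone ester added, 4 were lower, 30.8% against 18.4% of all genes (8 without mouse 13). Txn1 fell by 0.49 (adjusted p = 0.0375), Mlx, a partner of the glucose-sensing factors, by 0.31 (adjusted p = 0.0472), and the ubiquitin ligase genes Itch by 0.36 (adjusted p = 0.0188) and Nedd4l by 0.47 (adjusted p = 0.0347).

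Glucose phosphorylation, the step after uptake, had 3 of its 5 genes tested. Hk1 fell by 0.37 under semaglutide (limma adjusted p = 0.0129; 2 genes called without mouse 13 and in DESeq2, none with columns rescaled to equal totals). Of the 10 other glucose transporter genes, 3 reached the mean of 10 normalized counts, and 0 were called in limma, edgeR or DESeq2, with 0 at an unadjusted p under 0.05. Slc2a8 had 182, 193 and 167 normalized counts in the 3 groups, and Slc2a10 had 21.3, 18.7 and 20.1.

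Of 26 other Tbc1d family genes tested, 1 was higher and 3 were lower under semaglutide, 15.4% of the list against 25.1% of all genes (10 called without mouse 13, 7 with columns rescaled to equal totals). Tbc1d31 rose by 0.98 (limma adjusted p = 0.00733), and Tbc1d10c (-0.65, adjusted p = 0.0242) and Tbc1d32 (-0.40, adjusted p = 0.0438) fell. With ketone ester added 0 were higher and 4 lower, 15.4% against 18.4% of all genes (8 called without mouse 13, 12 with columns rescaled to equal totals), among them Tbc1d31 (-1.03, adjusted p = 0.0156), Tbc1d25 (-0.60, adjusted p = 0.00725) and Tbc1d20 (-0.42, adjusted p = 0.0279). Between semaglutide + ketone ester and vehicle, 0 genes of the 7 lists were called in limma or edgeR, against 0.236% and 0.366% of all genes. DESeq2 called 4, against 1.40% of all genes, and 14 had an unadjusted limma p under 0.05, against 10.5%. The 7 lists held 3, 24, 17, 13, 3, 12 and 26 tested genes. The medians of the lists of 24, 12, 13 and 26 genes were -0.058, 0.14, 0.054 and -0.0092 on the log2 scale under semaglutide, and -0.010, -0.43, -0.31 and -0.13 with ketone ester added.

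**Figure D5:**
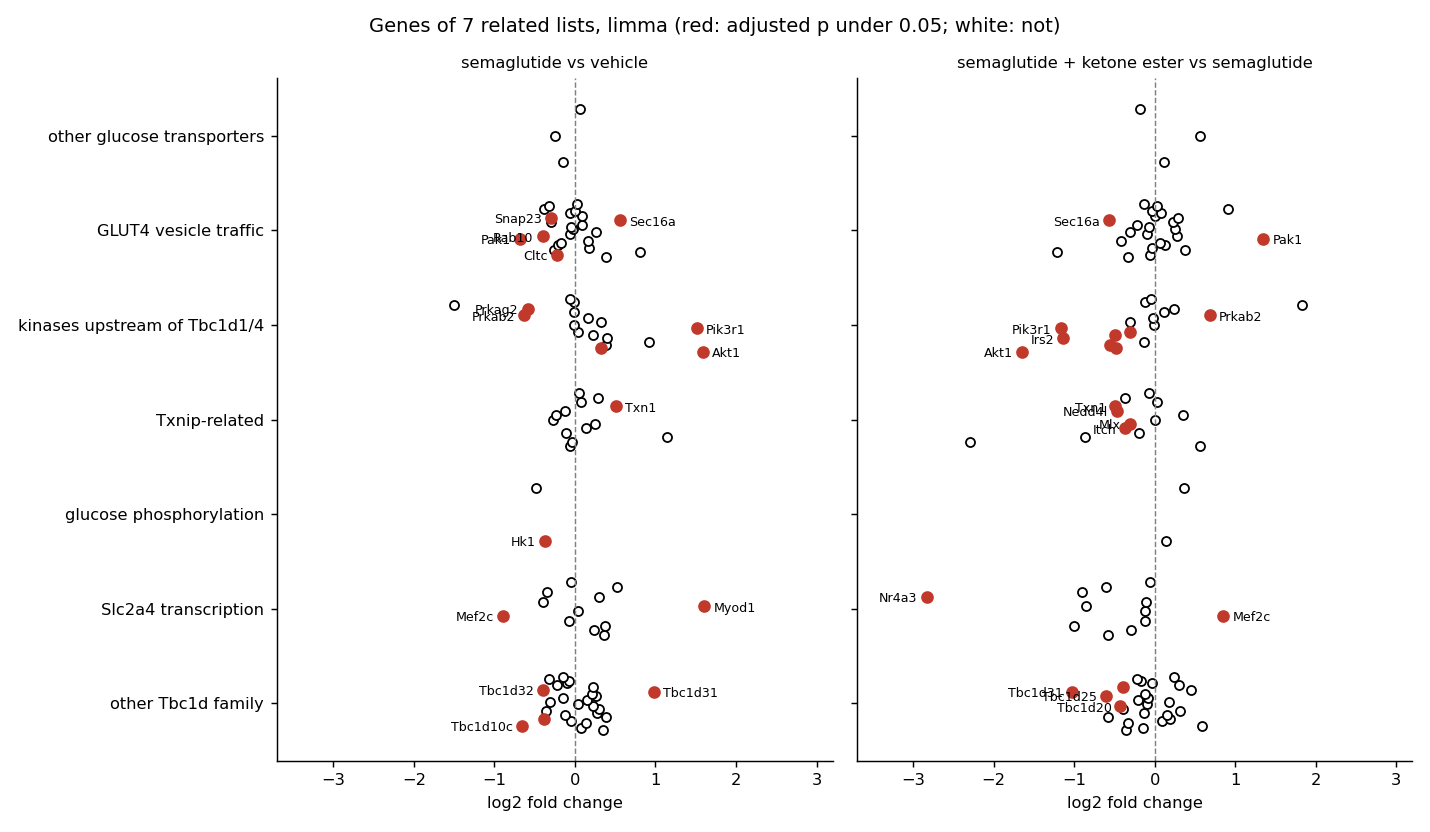
Log2 fold changes of tested genes of 7 related lists, 1 point per gene (1 gene is not shown), red where the limma adjusted p is under 0.05 and labelled by name for genes given in the text. Akt2 is red in both panels without a label. Akt1, Pik3r1, Myod1 and Tbc1d31 lie to the right under semaglutide, and Akt1, Pik3r1 and Tbc1d31 to the left with ketone ester added.

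The genes most like each member over the 13 mice were found by Pearson's r of log2(normalized count + 1), a description in which group differences enter. For Tbc1d4 they were Exosc1 (r = 0.98), Tubb4b (0.96) and Pcgf3 (0.96), and for Tbc1d1 they were Maco1 (0.95), Igf1r (0.94) and Stk26 (0.94). Tbc1d1 and Tbc1d4 had r = 0.90 with each other. For Slc2a12 they were Clcn3 (0.91), Oxsm (0.90) and Kbtbd13 (0.90), and for Txnip Hsd17b4 (0.90), Ucp3 (0.90) and Angptl4 (0.90).
For Slc2a4 they were Rwdd4a (0.94), Apobec2 (0.94) and Rbm38 (0.93). Slc2a3 was nearest to Shc2 (0.94), Me1 (0.92) and Ttll7 (0.91), and Slc2a1 to Mplkip (0.86), Trib3 (0.86) and Arf6 (0.85). Slc2a4 and Txnip had r = -0.58 with each other.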

How the data were processed

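Gastrocnemius RNA from 13 mice was sequenced from stranded mRNA libraries, and the authors aligned reads to mm10 with DRAGEN. The authors deposited normalized counts per gene, a signal with 1 column per mouse. The submitters' processing notes also name DESeq2. The counting program, its annotation and its use of strand are not given in the sources used here. Every value was a whole multiple of its column's step (100% within 0.01 read), so whole reads were recovered, 15319471 to 23498162 per mouse.

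From these values log2(normalized count + 1) was tested with limma (3.58.1, R 4.3.3) in 12303 of 21868 genes with a mean of at least 10, with all 3 groups in the model and Benjamini-Hochberg adjustment over all genes (threshold 0.05). The pseudocount understates fold changes of low genes. Alternatives were edgeR (4.0.16) and DESeq2 (1.42.0) on the recovered reads, other pseudocounts, filters and scalings, limma-trend, array weights and each mouse left out. The fits were checked on simulated data. Groups came from the labels, and the p-values rest on the spread between separate mice. The genes, lists and tests were chosen with earlier results of these data known. Named list genes were those with an adjusted p under 0.05 in either of the first 2 comparisons, at most 5 per list by size of change, or else the 2 with the highest level, and the 3 genes of highest Pearson's r were named for each member. The list counts without mouse 13, in edgeR, in DESeq2 and with equal totals were chosen after seeing the data. The result of 1 list gene is not reported here.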

Additional observations from a re-analysis of the deposited data

Results flagged for a closer look

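Slc2a3 in semaglutide mouse 16 was far below the rest of its group, at 184 normalized counts against 331 to 365 in the other semaglutide-treated mice. The gap to the nearest mouse was 0.81 of the range of the group, above Dixon's critical value of 0.71. Of the 14 groups of 5 mice looked at in this way this was the 1 that passed, and chance passes about 1 in 20.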

How the results depend on the processing

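Over 24 alternatives for each gene and comparison, 489 of 504 values kept their direction and their side of the threshold. The 4 called differences stayed called in all 24. Log2 fold changes ran from 0.85 to 1.15 for Tbc1d1 and from 0.84 to 1.10 for Tbc1d4 under semaglutide, and with ketone ester added from 0.44 to 0.77 for Slc2a12 and from -0.91 to -0.58 for Tbc1d4 (highest adjusted p 0.048). Against vehicle, semaglutide + ketone ester had 1 called gene, Slc2a12, in DESeq2 (adjusted p = 0.0259) and with array weights. Of all genes, 1.40% and 1.67% were called in these settings. Some differences that were not called changed sign. With columns rescaled to equal totals and ketone ester added, Slc2a4 was -0.019 against semaglutide (0.22 without rescaling) and -0.031 against vehicle (0.032 without rescaling). Txnip was -0.12 against semaglutide (0.11 without rescaling), and Slc2a12 was 0.033 between semaglutide and vehicle (-0.14 without rescaling). With each mouse left out, the ketone ester values ran from -0.23 to 0.019 for Slc2a1 and from -0.052 to 0.095 for Slc2a4 against vehicle, and from -0.078 to 0.27 for Txnip against semaglutide. With equal totals the median of all genes was 0.17 between semaglutide and vehicle. It was -0.24 between semaglutide + ketone ester and semaglutide, and -0.069 between semaglutide + ketone ester and vehicle. Why signs changed with a mouse left out was not tested. The 7 lists held 18 called genes under semaglutide and 21 with ketone ester added, 39 and 40 without mouse 13, 27 and 28 in edgeR, and 29 and 44 with equal totals. No paired analysis was possible because the mouse numbers in the labels do not repeat between groups. With 3 semaglutide + ketone ester–treated mice the limma standard errors were somewhat larger than between semaglutide and vehicle (0.194 against 0.168 for Slc2a4). The 3 groups share an estimate of spread, so semaglutide-treated mice also enter the intervals between semaglutide + ketone ester and vehicle. In the order vehicle, semaglutide and semaglutide + ketone ester, the log2 SD was 0.029, 0.43 and 0.15 for Slc2a4. For Txnip it was 0.19, 0.59 and 0.080. Slc2a1 and Slc2a12 rest on 74 to 252 reads per mouse.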
